A study of Homo sapiens with 3 samples.

Results

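The 9 genes described here encode the D-type cyclins (CCND1, CCND2 and CCND3), the E-type cyclins (CCNE1 and CCNE2), the kinases these cyclins bind (CDK2, CDK4 and CDK6) and the phosphatase CDC25A, out of 18239 genes on the array. They were proposed with the expression values of these same arrays in view, so they count as selected on the differences between the siRNA-treated cells and their control, and every value below is a description without a test. Their 27 probe sets are all those annotated to a member alone, out of 45253 probe sets with a single gene, and no probe set with several genes holds a member. RNA came from cells labelled GFP-SAS, a form of the established human tongue carcinoma line SAS, and the control siRNA (siNT) was given to 1 library. The other 2 libraries received siRNAs of different sequence against AKT1, siAkt1-22 in 1 and siAkt1-58 in 1. For all 3 libraries the cells had 10 nM of siRNA for 24 h. A small interfering RNA (siRNA) is a short duplex that directs cleavage of mRNA with a matching sequence. The cells of each library thus carried a transfected duplex, the control included. No untransfected culture was analysed here, and the labels do not say how many clones or cultures stood behind a library.

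Cyclins are the regulatory subunits of cyclin-dependent kinases (CDKs). D-type cyclins are made in response to growth signals and activate CDK4 and CDK6, which phosphorylate the retinoblastoma protein and its relatives in G1 phase and so release E2F transcription factors. E2F factors switch on genes for DNA synthesis, among them the E-type cyclins and CDC25A. E-type cyclins activate CDK2 at the entry into S phase, and CDC25A removes inhibitory phosphates from CDK2. AKT is known to stabilise cyclin D1 protein by restraining the kinase GSK3, a step that an mRNA array does not read.

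AKT1, the target, read 6.75 on the log2 scale with siNT, then 3.67 with siAkt1-22 and 3.47 with siAkt1-58, in its brightest probe set. It was lower by more than 2-fold with both siRNAs in 2 of its 3 probe sets, and the last one stood at 3.47 in all 3 libraries. Array medians lay between 4.58 and 4.59. The siAkt1-22 library stood apart most often: 680 of 12779 genes differed there at least 2-fold, in one direction, from each of the others, against 244 for siNT and 256 for siAkt1-58. In the same library 24 probe sets for poly-A RNA added ahead of labelling differed from siNT by a median of -0.56 (from -1.25 to -0.35), against -0.01 (from -0.31 to 0.20) with siAkt1-58. The actin gene ACTB differed from siNT by -3.09 with siAkt1-22 and 0.21 with siAkt1-58, and GAPDH by -0.05 and 0.02. The part of these differences in the results below was not tested. Of the epithelial markers with a probe set, KRT5, CDH1 and EPCAM read at least 9.16 in every library and KRT14 at most 3.67. The 5 fibroblast markers ran from 2.46 to 4.33 and the 4 endothelial markers from 3.34 to 4.50. Of 4 immune markers, PTPRC, CD3E and CD14 read at most 3.56, and CD68 read 6.33 with siNT, 6.75 with siAkt1-22 and 7.14 with siAkt1-58.

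Most of the G1 cyclin machinery read lower after either AKT1 siRNA. With the brightest probe set standing for each gene, 7 of the 9 members were below siNT with both siRNAs, 1 (CDK4) was above it with both, and CCND3 lay on opposite sides. Of all 12779 genes that passed the filter on dim genes, 21.4% lay below siNT with both of the siRNAs and 30.9% lay above it with both. The median difference from siNT was -1.16 with siAkt1-22 and -1.24 with siAkt1-58, beside 0 and 0 over these 12779 genes, whose mean log2 value reached the filter level of 3.93. All 9 members passed that filter. By a rule of size, a difference of at least 2-fold, 5 members were lower with siAkt1-22 (5.97% of all genes) and 7 with siAkt1-58 (3.58% of all genes). CCND1, CCND2, CCNE1 and CCNE2 were at least 2-fold lower with both, where 1.17% of all genes were. One member, CDK4, was at least 2-fold higher with siAkt1-22 (4.4% of all genes), and 0 were with siAkt1-58 (1.54%) or with both (0.736%). Because the members were chosen on this contrast, nothing is read from these shares. Both differences of a gene share the single siNT library, whose own spread was not measured, so the SD given below is that between the siRNAs and includes whatever their sequences do differently.

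**Figure D1:**
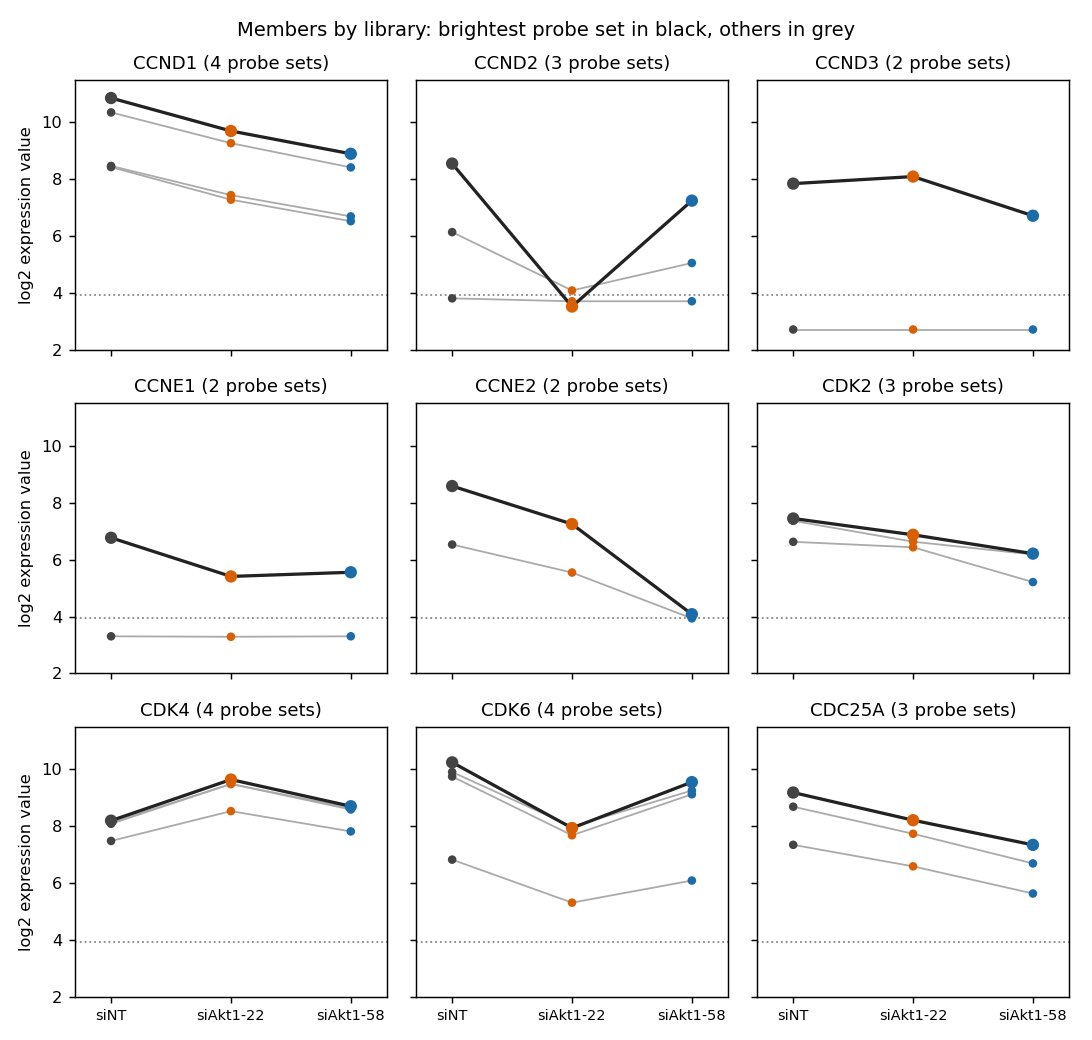
Log2 expression value (vertical axis) of every probe set of the 9 members in each library (horizontal axis); lines join the values of 1 probe set, black for the brightest and grey for the others, and the dotted line is the filter level of 3.93. CCND1, CCNE2, CDK2 and CDC25A step down from siNT to siAkt1-22 to siAkt1-58, CCND2 and CDK6 are lowest with siAkt1-22, and CDK4 is highest with siAkt1-22.

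To show the sequence context of members that read lower or higher, the 250 bases before the annotated start are given for CDC25A and CCNE1, lower with both siRNAs, CDK4, higher with both, and CDK6, lower mainly with siAkt1-22. They come from RefSeq (GRCh38.p14). Some of its entries were left out before matching, and 5 of the 9 members (CCND3, CCNE1, CDK4, CDK6 and CDC25A) had one among those kept. For the other members the lack of a window here does not show that RefSeq holds none. For CDK6 the outermost of 2 starts was taken. Capitals mark words found on either strand: the E2F words TTTGGCGC, TTTCCCGC, TTTGCCGC and TTTCGCGC, the E-box word CACGTG, the GC box word GGGCGG and the CCAAT box word CCAAT. The windows are chr3:48188418-48188667 on the minus strand for CDC25A, chr19:29811741-29811990 on the plus strand for CCNE1, chr12:57752311-57752560 on the minus strand for CDK4, and chr7:92836574-92836823 on the minus strand for CDK6.
CDC25A: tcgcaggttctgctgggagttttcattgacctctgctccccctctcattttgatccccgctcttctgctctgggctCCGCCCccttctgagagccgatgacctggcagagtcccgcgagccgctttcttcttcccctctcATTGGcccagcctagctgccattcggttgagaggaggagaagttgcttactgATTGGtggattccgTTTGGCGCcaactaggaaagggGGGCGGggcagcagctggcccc
CCNE1: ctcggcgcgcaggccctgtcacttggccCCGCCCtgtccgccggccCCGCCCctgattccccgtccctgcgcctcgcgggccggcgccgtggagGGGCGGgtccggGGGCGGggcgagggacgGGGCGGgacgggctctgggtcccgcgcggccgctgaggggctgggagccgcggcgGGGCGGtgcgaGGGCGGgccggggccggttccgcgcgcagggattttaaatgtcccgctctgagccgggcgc
CDK4: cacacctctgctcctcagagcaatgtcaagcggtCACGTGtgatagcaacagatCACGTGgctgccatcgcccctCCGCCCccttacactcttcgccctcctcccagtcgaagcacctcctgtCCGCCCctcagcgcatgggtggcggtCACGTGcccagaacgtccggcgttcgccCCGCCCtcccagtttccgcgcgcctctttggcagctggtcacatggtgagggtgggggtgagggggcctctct
CDK6: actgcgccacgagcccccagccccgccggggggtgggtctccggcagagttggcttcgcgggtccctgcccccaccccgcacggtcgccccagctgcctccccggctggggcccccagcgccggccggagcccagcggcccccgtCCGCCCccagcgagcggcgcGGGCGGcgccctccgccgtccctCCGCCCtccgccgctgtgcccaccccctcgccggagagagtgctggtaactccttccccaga

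The CDC25A window held 1 E2F word, TTTGGCGC, with its first base 44 bases before the start, beside 2 CCAAT boxes and 2 GC boxes. The CDK4 window held 3 E-boxes, beginning 216, 196 and 101 bases before the start, and 3 GC boxes. GC boxes were the only words in the CCNE1 window, with 7, and in the CDK6 window, with 3. Over the 35116 windows of 250 bases kept after the same entries were left out, 2.79% held an E2F word, 6.34% an E-box, 42.6% a GC box and 32.0% a CCAAT box. A word of these letters is a description of the sequence and no measure of binding.

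CCND1 encodes cyclin D1, a partner of CDK4 and CDK6. Its brightest probe set read 10.86 with siNT, 9.70 with siAkt1-22 and 8.90 with siAkt1-58. The siNT value was thus the highest and the siAkt1-58 value the lowest, 2.23-fold and 3.89-fold below siNT with the siRNAs in turn. The mean log2 difference was -1.56 ± 0.57 (SD, n = 2). All 4 probe sets kept this order: their differences ran from -1.16 to -1.03 with siAkt1-22 and from -1.96 to -1.77 with siAkt1-58.

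CCND2 encodes cyclin D2. Its brightest probe set read 8.55 with siNT, 3.53 with siAkt1-22 and 7.25 with siAkt1-58, so the siAkt1-22 library alone was under the filter level. That difference, -5.02 or 32.5-fold, was the lowest of all 12779 genes with siAkt1-22. With siAkt1-58 it was -1.30 (2.47-fold), and the mean was -3.16 ± 2.63 (SD, n = 2). The next probe set was dimmer, at 6.14, 4.09 and 5.06, and gave -2.05 and -1.08 in the same order. A value near the floor of the array understates the difference, so the folds of CCND2 with siAkt1-22 do not measure the mRNA that was left. The remaining CCND2 probe set lay below the filter level throughout, at 3.82 with siNT and 3.71 in both other libraries.

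CCND3 encodes cyclin D3 and was the only member on opposite sides of siNT with the siRNAs. It read 7.85 with siNT, 8.10 with siAkt1-22 and 6.72 with siAkt1-58. The difference was 0.25 with siAkt1-22 and -1.13 with siAkt1-58, and the mean of -0.44 was smaller than the SD between the siRNAs (0.97, n = 2). Its other probe set stood at 2.72 in all 3 libraries. Among the D-type cyclins, then, the lowest library was siAkt1-58 for CCND1 and CCND3 and siAkt1-22 for CCND2.

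CCNE1 and CCNE2 encode the E-type cyclins, which activate CDK2. CCNE1 read 6.77 with siNT, 5.41 with siAkt1-22 and 5.56 with siAkt1-58. The siAkt1 libraries lay close together, 2.56-fold and 2.32-fold below siNT, and the mean of -1.29 ± 0.10 (SD, n = 2) had the narrowest spread of the 9 members. The other CCNE1 probe set was dim, from 3.29 to 3.30. CCNE2 read 8.59 with siNT, 7.25 with siAkt1-22 and 4.08 with siAkt1-58. Its difference with siAkt1-58, -4.50 or 22.7-fold, was the lowest of the 12779 genes with that siRNA, while siAkt1-22 gave -1.34 (2.52-fold). The mean was -2.92 ± 2.24 (SD, n = 2). The other CCNE2 probe set kept the order at 6.53, 5.55 and 3.93, with differences of -0.98 and -2.60. Both probe sets came near or to the filter level with siAkt1-58.

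CDK2, the catalytic partner of E-type cyclins, read 7.45 with siNT, 6.87 with siAkt1-22 and 6.21 with siAkt1-58. The lower values were again those of siAkt1-58, and the mean was -0.90 ± 0.47 (SD, n = 2). Its 3 probe sets ran from -0.73 to -0.19 with siAkt1-22 and from -1.41 to -1.18 with siAkt1-58. CDC25A, the phosphatase that activates CDK2, read 9.18, 8.21 and 7.34 in the order siNT, siAkt1-22 and siAkt1-58. It was 1.96-fold and 3.58-fold below siNT, with a mean of -1.41 ± 0.61 (SD, n = 2). With siAkt1-22 its 3 probe sets gave -0.97 to -0.76, just short of 2-fold, and with siAkt1-58 they gave -1.99 to -1.71. Of the windows printed above, only that of CDC25A holds an E2F word, and whether it bears on these values was not tested.

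The kinases that pair with D-type cyclins lay on opposite sides of siNT. CDK6 read 10.24 with siNT, 7.93 with siAkt1-22 and 9.55 with siAkt1-58, lowest with siAkt1-22 at 4.95-fold below siNT and 1.62-fold below it with siAkt1-58. Its mean was -1.50 ± 1.14 (SD, n = 2), and its 4 probe sets ran from -2.31 to -1.51 with siAkt1-22 and from -0.74 to -0.63 with siAkt1-58. CDK4 read 8.19 with siNT, 9.64 with siAkt1-22 and 8.70 with siAkt1-58, highest with siAkt1-22. It was 2.72-fold and 1.42-fold above siNT with a mean of 0.98 ± 0.66 (SD, n = 2). The 4 CDK4 probe sets ran from 1.05 to 1.44 with siAkt1-22 and from 0.34 to 0.52 with siAkt1-58. For both kinases the difference with siAkt1-22 was the larger in every probe set.

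**Figure D2:**
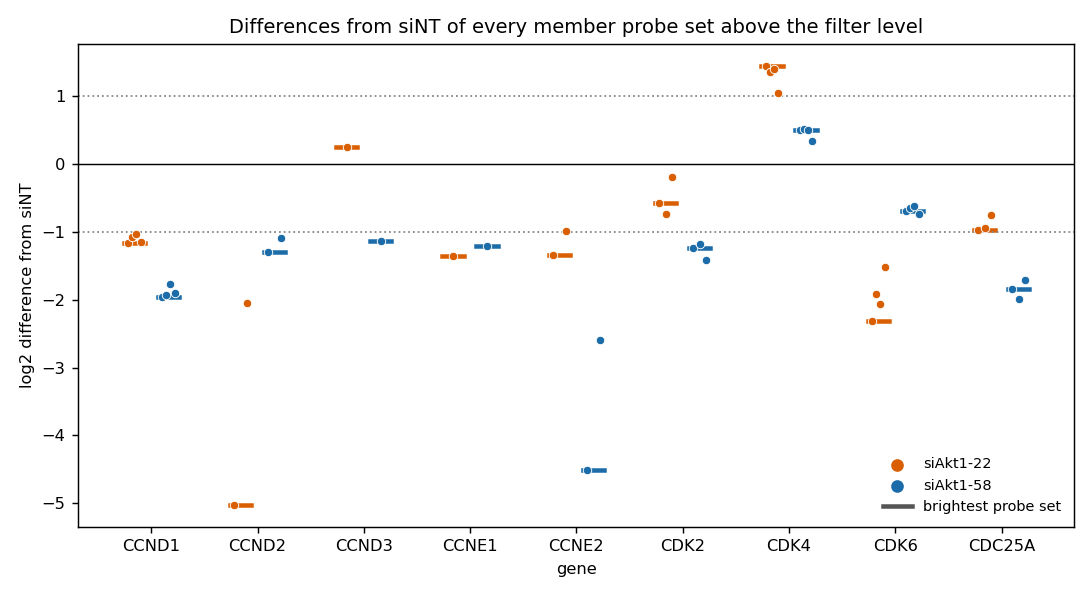
Log2 difference from siNT (vertical axis) of each member's probe sets above the filter level, orange for siAkt1-22 and blue for siAkt1-58; a point is 1 probe set, the bar is the brightest, and dotted lines mark 2-fold. Probe sets of CCND1, CDK4, CDK6 and CDC25A cluster by siRNA, while CCND2 with siAkt1-22 (-5.02 and -2.05) and CCNE2 with siAkt1-58 (-4.50 and -2.60) spread with brightness.

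Of the 27 member probe sets, 24 lay above the filter level. By probe set, 8 of these 24 were at least 2-fold lower with both siRNAs, beside 1.22% of 28249 probe sets, and 0 were higher by that size, beside 0.63%. Averaging every probe set of a gene, dim ones included, left CCND1 and CCNE2 as the 2 members at least 2-fold lower with both siRNAs, in place of 4; 0.775% of all genes were so under averaging. CCND2 then stood at -2.39 and -0.83, CCNE1 at -0.69 and -0.61, and CCND3 at 0.12 and -0.56.

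Within each member the siRNAs were compared directly, by the brightest probe set. CCND2 was 13.2-fold lower and CDK6 3.06-fold lower with siAkt1-22 than with siAkt1-58, where 5.28% of all genes were at least 2-fold lower. CCNE2 was 8.99-fold higher and CCND3 2.60-fold higher with siAkt1-22 than with siAkt1-58, where 5.0% of all genes were at least 2-fold higher. CDK4, CDC25A, CCND1 and CDK2 were 1.92-fold, 1.82-fold, 1.74-fold and 1.58-fold higher with siAkt1-22, and CCNE1 1.11-fold lower. The median size of this difference was 0.94 on the log2 scale over the 9 members and 0.22 over all genes. CCND2 and CCNE2 ranked 8 and 21 by it among the 12779 genes, with opposite signs. Each rests on a value under or near the filter level, 3.53 for CCND2 with siAkt1-22 and 4.08 for CCNE2 with siAkt1-58. The other CCND2 probe set above that level was 1.95-fold lower with siAkt1-22 than with siAkt1-58. The other CCNE2 probe set was 3.06-fold higher, and the CDK2 probe sets ran from 1.36-fold to 2.33-fold higher. With 1 library for each siRNA these values have no error. AKT1 itself differed by 0.20 in its brightest probe set. Both AKT1 values behind that difference (3.67 and 3.47) lay under the filter level of 3.93, so it does not show that the siRNAs lowered AKT1 equally.

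**Figure D3:**
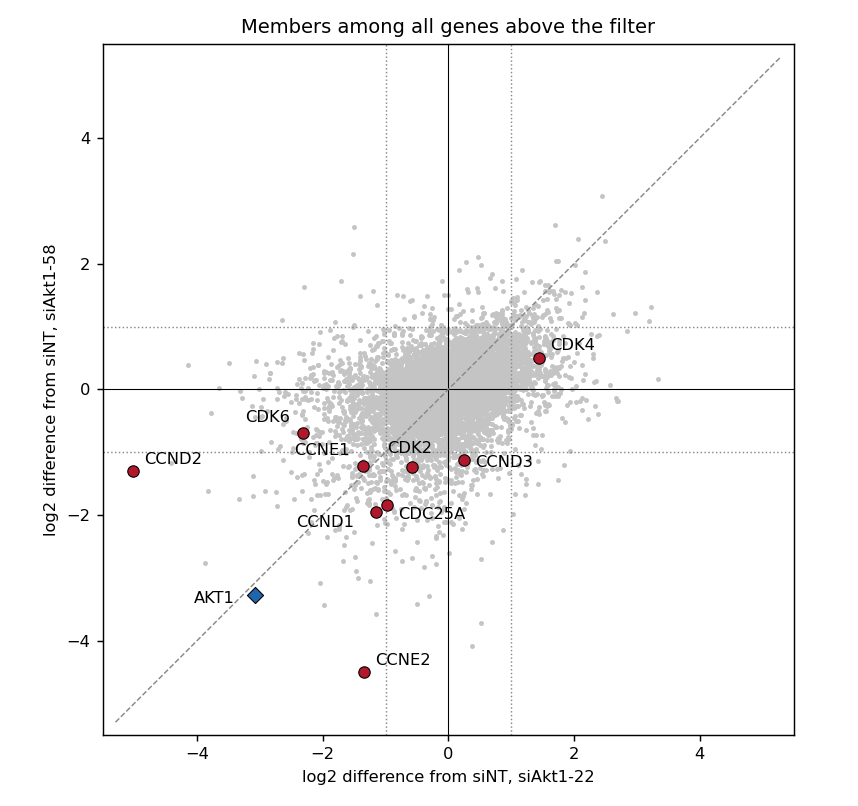
Log2 difference from siNT with siAkt1-22 (horizontal axis) against that with siAkt1-58 (vertical axis) for the 12779 genes above the filter (grey), the 9 members (red) and AKT1 (blue diamond); dotted lines mark 2-fold and the dashed line equal differences. CCND2 lies farthest left at -5.02 and CCNE2 lowest at -4.50, while CCNE1 and AKT1 lie close to the dashed line; both axes share the single siNT library.

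By the distance between the pairs of differences, over 3 libraries, the genes nearest to CCND2 were TMEM200A (-4.42 and -1.17), PM20D2 (-3.83 and -1.61) and PPIL1 (-3.79 and -0.37). Nearest to CCNE2 were LMNB1, a subunit of the nuclear lamina (-1.15 and -3.57), ZNF367 (-1.98 and -3.44) and CDCA7 (-0.49 and -3.42). These distances ran from 0.61 to 1.55 log2 units, since few genes lie so far out. For CDK6 they were at most 0.11, to RHPN2 (-2.31 and -0.78), SDAD1 (-2.35 and -0.78) and the kinetochore protein gene CENPF (-2.26 and -0.59).

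Genes that overlap or directly neighbour a member in RefSeq were read where they had a probe set. TSPAN31, a tetraspanin gene on the opposite strand that overlaps CDK4, was higher with both siRNAs in both probe sets: 4.55, 7.05 and 6.92 in the order siNT, siAkt1-22 and siAkt1-58, and 3.91, 5.88 and 5.85. It was thus nearly as high with siAkt1-58 as with siAkt1-22, whereas CDK4 was highest with siAkt1-22. Whether any probe reads both transcripts was not tested. AGAP2, the neighbour on the TSPAN31 side of CDK4, differed by 0 to 0.30 from siNT. Around CCNE2, INTS8 was 0.01 and 0.14, the brightest NDUFAF6 probe set 0.14 and -0.47, and the brighter DPY19L4 probe set -1.09 and -0.41. The brighter TIGAR probe set, beside CCND2, was -0.20 and -0.60. Beside CCND3, the brightest probe sets of BYSL and TAF8 were -0.74 and -0.47, and -0.47 and -0.14. Beside CDK2, RAB5B was 0.43 and 0.43 in its brightest probe set, and the only PMEL probe set 0 and 0.01.

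**Figure D4:**
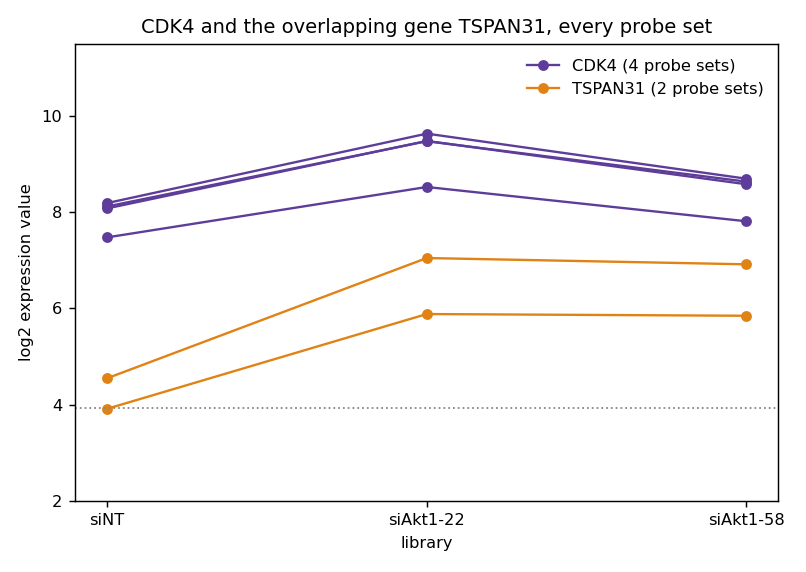
Log2 expression value (vertical axis) of the 4 CDK4 probe sets and the 2 TSPAN31 probe sets in each library (horizontal axis); lines join 1 probe set and the dotted line is the filter level. CDK4 peaks with siAkt1-22 (9.64 in the brightest probe set), and TSPAN31 is near 7 in both siAkt1 libraries in its brighter probe set (7.05 and 6.92).

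The other genes of the pathway were read from 9 lists, by counts and medians. Among the CDK inhibitors, 3 of 5 (CDKN1A, CDKN2A and CDKN2B) were above siNT with both siRNAs (30.9% of all genes), and the medians were 0.83 and 0.44. CDKN2B, whose product p15 inhibits CDK4 and CDK6, read 5.48, 7.93 and 8.56 in the order siNT, siAkt1-22 and siAkt1-58, and CDKN2D was lowest of the list at -0.29 with each. The pocket proteins, the substrates of these kinases, were all 3 below siNT with both siRNAs (21.4% of all genes). RB1 was -0.24 and -0.69, and RBL2 -1.65 and -0.05. Of 9 E2F and DP factors, 7 were below siNT with both (21.4% of all genes), with medians of -0.28 and -0.25. E2F7, a repressor of the family, was -2.96 and -0.42, and E2F6 was 0.25 and -0.06.

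E2F target genes of S phase were below siNT with both siRNAs in 17 of 24 (21.4% of all genes), with medians of -0.31 with siAkt1-22 and -1.47 with siAkt1-58. At least 2-fold lower were 17 with siAkt1-58 (3.58% of all genes) and 2 with siAkt1-22 (5.97%). Those 2 were MCM6, a subunit of the replicative helicase (-2.18 and -1.74), and the flap endonuclease FEN1 (-1.23 and -1.47), while MCM2 was 0.47 and -0.15. The S and M phase cyclins with CDK1 were below siNT with both in 5 of 5 (21.4% of all genes), with medians of -0.50 and -0.76. CCNA2, which follows the E-type cyclins at CDK2, was -0.64 and -1.42, and CCNF was -0.24 and -0.76.

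Among 14 genes of G1 cyclin turnover the medians were 0 and 0.06. SKP2, the ubiquitin ligase subunit that targets the inhibitor p27, was the only one at least 2-fold lower with both siRNAs (-1.26 and -1.63), and AMBRA1, a ligase receptor for D-type cyclins, was 0.42 and 0.14. CDK activators and phosphorylation regulators had medians of 0.11 and -0.31. CDC25B, a relative of CDC25A, was -2.09 and -0.86, and the CDK-activating kinase CDK7 was 0.90 and 0.17. Of 24 other cyclins and CDKs, 1 was at least 2-fold higher with siAkt1-22 (4.4% of all genes) and 0 lower (5.97%). That gene was CDK5 (1.17 and 0.32, named after its values were seen). With siAkt1-58, 0 were higher by that size (1.54%) and 0 lower (3.58%). The medians of the list were 0.09 and 0.07. Above siNT with both siRNAs were 12 (30.9% of all genes), and 4 were below it with both (21.4%). CDK14 was -0.76 and -0.61, and CDK18 was 0.96 and 0.58. The 12 transcription factors upstream of D-type cyclins had medians of -0.06 and -0.08. CTNNB1, which encodes beta-catenin, was -2.19 and -0.15, and the AKT substrate FOXO3 was 0.55 and 0.62. Of the 104 genes of these lists, 3 were at least 2-fold lower with both siRNAs (SKP2, MCM6 and FEN1), beside 1.17% of all genes. CDKN2B was the 1 gene at least 2-fold higher with both, a share close to the 0.736% of all genes. These lists were drawn up with earlier results of the arrays known.

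**Figure D5:**
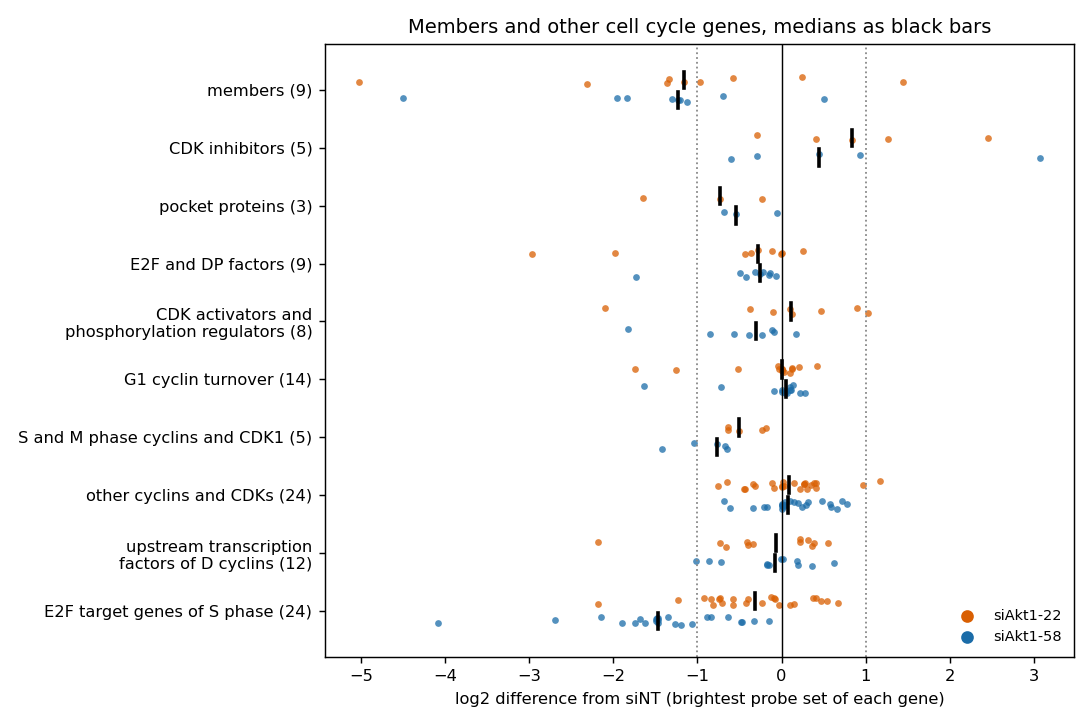
Log2 difference from siNT (horizontal axis) of the members and of 9 lists of cell cycle genes (vertical axis, number above the filter in brackets), orange for siAkt1-22 and blue for siAkt1-58; a point is 1 gene by its brightest probe set, black bars are medians and dotted lines mark 2-fold. The member medians lie at -1.16 and -1.24, other cyclins and CDKs lie around 0 (0.09 and 0.07), and the E2F target genes lie apart by siRNA (-0.31 and -1.47).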

How the data were processed

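The labels name 10 ng of total RNA and a 3' in vitro transcription kit for Affymetrix arrays. The authors deposited log2 expression values per probe set, made with RMA per the submitters' processing notes; no version or setting is given in the sources used here. RMA makes the distributions of arrays alike and combines probes by median polish, which with few arrays gives tied values: 1 of the 27 member probe sets was equal in all 3 libraries and 2 in a pair. The deposited values ran from 2.20 to 13.4 and were used as they are. Precision is limited by the number of arrays.

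Of 49386 probe sets, 45253 had a single gene in the platform annotation; 1327 with several genes, 2713 unlisted and 93 controls were left out. Symbols were updated through Entrez identifiers for 45172 (RefSeq, GRCh38.p14) and 81 were kept. The brightest probe set stood for a gene, and genes whose mean reached the 30th percentile were kept. Probe sets whose names end in _s_at or _x_at may read related transcripts. Differences are each siAkt1 library minus siNT, computed in Python 3.11.15 with pandas 2.3.3 and checked on simulated data. No model was fitted: the members and lists were chosen with earlier results of these data known. The labels do not say that libraries came from separate cultures. Named genes were all members, AKT1, the highest and lowest gene of each list with any at least 2-fold from siNT with both siRNAs, RefSeq neighbours, and the 3 genes nearest in pattern to the 3 members with the largest differences. Markers, ACTB, GAPDH and the genes counted singly were named beside them.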

Additional observations from a re-analysis of the deposited data

How the results depend on the processing

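Every recomputed count of members stayed the same under median centring, quantile normalization and leaving out probe sets ending in _x_at. It also did with no filter and with a filter at the 50th percentile. All 9 members stayed on the same side of siNT in their mean where that was recomputed. A 1.5-fold limit is a looser rule. It gave 6 members lower with siAkt1-22 (12.0% of all genes), 8 with siAkt1-58 (8.74%) and 6 with both (3.58%). Higher by it were 1 with siAkt1-22 (12.3%), 0 with siAkt1-58 (6.58%) and 0 with both (3.2%). Averaging probe sets moved the median of the 9 mean differences from -1.41 to -1.31. Members at least 2-fold lower went from 7 to 4 with siAkt1-58 (2.67% of all genes under averaging) and from 4 to 2 with both siRNAs (0.775%). Those 2-fold higher with siAkt1-22 than with siAkt1-58 went from 2 to 1, a count whose share of all genes was not recomputed. CCNE1 went from -1.29 to -0.65, because the average takes in its dim probe set. With probe sets as the unit, 12 of 24 were lower and 4 higher with siAkt1-22 (6.6% and 3.9% of all probe sets), 16 lower with siAkt1-58 (3.56%) and 8 lower with both (1.22%). Leaving out either siAkt1 library returns the values of the other siRNA given above, so it is no separate check. With siAkt1-22 alone the median was -1.16, with 5 members 2-fold lower (5.97% of all genes) and 1 higher (4.4%). With siAkt1-58 alone it was -1.24, with 7 lower (3.58%) and 0 higher (1.54%). CCND3 was above siNT with siAkt1-22 alone (0.25) and below it with siAkt1-58 alone (-1.13). At 1.5-fold in place of 2-fold, the 104 pathway genes numbered 22 lower and 8 higher with siAkt1-22 (9 and 4 at 2-fold), 37 lower and 6 higher with siAkt1-58 (23 and 1), and 15 lower and 2 higher with both (3 and 1). The same 1.5-fold shares of all genes were 12.0% and 12.3%, 8.74% and 6.58%, and 3.58% and 3.2%. No paired analysis was possible because siNT has 1 library and the labels give no replicate numbers. Signal near the array's floor limits CCND2 with siAkt1-22, CCNE2 with siAkt1-58 and AKT1 with both siRNAs, and 1 control library limits every difference.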
